A study of Mus musculus with 4 samples.

Results

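The genes described here are 10 markers of type 1 conventional dendritic cells (cDC1), namely Xcr1, Clec9a, Cadm1, Cd8a, Cd24a, Snx22, Wdfy4, Naaa, Gcsam and Itga8, and they were measured in cells sorted as the other type, cDC2. They were chosen as a list of symbols, and each gene is represented by the brightest probe set annotated to that symbol alone, for 10 of the 19938 genes measured. The cells came from mouse spleen and were put on Affymetrix arrays, 1 array per sample. The WT group held 2 arrays of splenic cDC2 from chimeric mice carrying the Zbtb46-GFP reporter. The Id2 KO group held 2 arrays of splenic cDC2 from chimeric mice with the same reporter and a knockout of Id2. Zbtb46-GFP is thus shared by all 4 arrays. The labels give no age or sex of the mice, no host strain and no pooling, and they do not say which part of Id2 was deleted or whether the 2 replicates of a group came from separate mice. The p-values thus take in no more than the variation among these 4 samples, and it may be technical. The design text names bone marrow in one place, whereas the sample labels name spleen.

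Conventional dendritic cells of the spleen fall into cDC1, which take up dying cells and present their antigens on MHC class I to CD8 T cells, and cDC2, which present mainly to CD4 T cells. Development of cDC1 depends on the transcription factors IRF8 and BATF3 and on Id2, a helix-loop-helix protein that binds E proteins and keeps them from DNA, and mice without Id2 lack splenic cDC1. Most of these marker genes are known to be low in cDC2. No probe background was used here, so a dim signal has no measured floor.

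Of the 10 marker genes, 2 fell in the arrays labelled Id2 KO, and no marker gene rose. Snx22 fell by 0.45 on the log2 scale and Cd24a by 0.50, and the other 8 did not pass the test or lay below the intensity filter. All 10 differences were below 0, as were 54.3% of those of all genes, from -0.05 for Wdfy4 to -0.50 for Cd24a, although that of Wdfy4 turned with averaged probe sets and that of Naaa with 1 array left out. Their median was -0.19, beside -0.01 over all 19938 genes. In 9 of the 10 genes both arrays labelled Id2 KO lay below both WT arrays, an arrangement found in 23.2% of all genes. Of all 11963 tested genes, 2.52% were called lower and 5.53% higher. Without the filter on dim genes the same 2 marker genes were called, and 1.42% of all genes were called lower and 2.75% higher.

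The promoters of the genes that the results turn on are shown so that the E-box, the element CANNTG, can be seen in them. The E proteins that Id2 holds back bind some forms of this element, and a match alone does not mark a site of theirs. For 8 of the 10 genes the RefSeq promoter table of the mouse assembly GRCm38.p6 held an entry, and Cadm1 and Cd24a had none. Each line gives the 250 bases before the transcription start, 5′ to 3′ along the gene, in lower case with every CANNTG in capitals. Snx22 is the called gene with an entry, Xcr1 and Clec9a are the defining surface markers, and Wdfy4 is the gene whose level differed least.
Snx22: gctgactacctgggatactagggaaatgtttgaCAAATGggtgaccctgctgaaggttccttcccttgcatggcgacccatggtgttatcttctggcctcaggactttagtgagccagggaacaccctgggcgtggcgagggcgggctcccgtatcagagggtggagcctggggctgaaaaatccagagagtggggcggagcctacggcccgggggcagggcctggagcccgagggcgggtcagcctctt
Xcr1: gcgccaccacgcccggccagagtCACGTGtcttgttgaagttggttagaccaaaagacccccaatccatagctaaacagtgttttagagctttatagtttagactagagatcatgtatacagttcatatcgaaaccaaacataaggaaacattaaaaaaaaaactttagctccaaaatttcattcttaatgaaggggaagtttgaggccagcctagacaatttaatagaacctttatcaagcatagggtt
Clec9a: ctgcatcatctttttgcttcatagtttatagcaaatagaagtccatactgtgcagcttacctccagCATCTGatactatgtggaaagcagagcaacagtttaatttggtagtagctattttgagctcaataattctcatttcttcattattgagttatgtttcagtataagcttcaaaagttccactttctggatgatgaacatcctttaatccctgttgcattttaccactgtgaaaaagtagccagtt
Wdfy4: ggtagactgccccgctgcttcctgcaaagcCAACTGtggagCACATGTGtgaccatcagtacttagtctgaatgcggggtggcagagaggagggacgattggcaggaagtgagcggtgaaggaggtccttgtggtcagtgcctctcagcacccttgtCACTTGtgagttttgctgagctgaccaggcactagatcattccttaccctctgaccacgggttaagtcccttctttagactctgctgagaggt
The Snx22 stretch is chr9:66069760-66070009 on the minus strand, that of Xcr1 is chr9:123862030-123862279 on the minus strand, that of Clec9a is chr6:129408612-129408861 on the plus strand, and that of Wdfy4 is chr14:33185067-33185316 on the minus strand. The Wdfy4 entry belongs to a start inside the annotated gene and not to its outermost start.

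Snx22, Xcr1 and Clec9a each held 1 E-box in this window, that of Xcr1 being CACGTG, and Wdfy4 held 4, of which a pair overlap. CANNTG reads the same on both strands and includes CAGCTG, a form that E proteins bind well. CANNTG occurred in 7 of the 8 marker genes with an entry, all but Naaa, and in 66.2% of the 32851 promoter windows of the table, so its presence is common. CAGCTG occurred in 0 of the 8 and in 13.0% of all windows. TGANTCA, the AP-1 element to which BATF factors bind with JUN partners, occurred in 0 of the 8 and in 6.75% of windows. GAGGAA, the core of many sites of the ETS factor PU.1, occurred in 2 of the 8, Cd8a and Gcsam, and in 23.3% of windows. Both strands were searched for each. These are matches of letters and say nothing about binding.

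Levels are log2 intensities, and a gene is compared here between arrays and not with another gene, since probe sets of different genes respond differently to the same amount of RNA. Where the markers of a cell type are summed, in linear intensity, the sum is likewise compared between arrays, and its brightest probe sets weigh most in it. Genes with a mean over the 4 arrays above log2 6.77, the 40th percentile, were tested. Cd8a, Cd24a, Snx22, Wdfy4, Naaa and Gcsam passed this filter. Xcr1, Clec9a, Cadm1 and Itga8 lay below it, and for these 4 the value given is an adjusted p from the same fit without a filter.

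**Figure D1:**
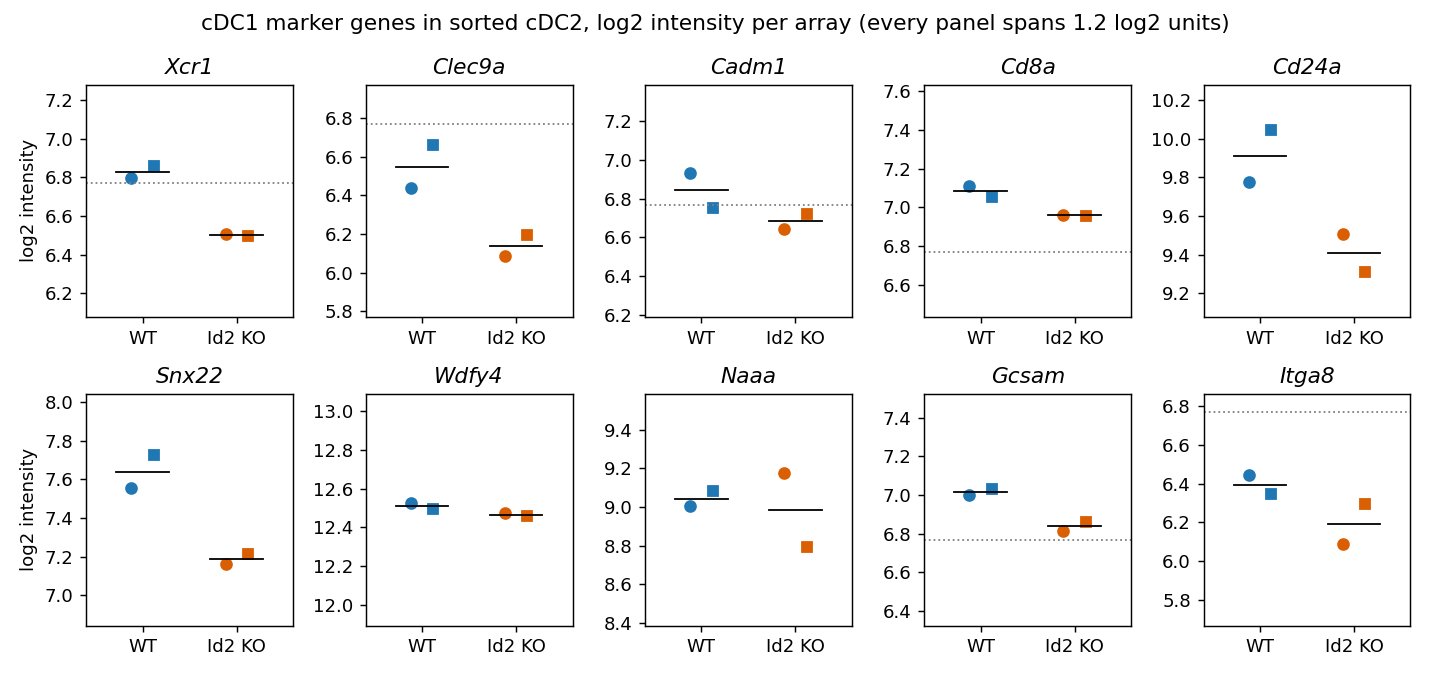
Log2 intensity of each of the 10 marker genes on each array, WT in blue and Id2 KO in orange, with a circle for replicate 1, a square for replicate 2, a bar at the group mean and a dotted line at the filter level of 6.77 where it falls in the panel. Both orange points lie below both blue points in every panel except that of Naaa.

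Xcr1 and Clec9a are the surface receptors that define cDC1. Xcr1, the receptor for the chemokine XCL1 that draws cDC1 towards T and NK cells (probe set 10597996, chromosome 9), read 6.80 and 6.86 on the WT arrays, and 6.51 and 6.50 on those of Id2 KO. The groups did not overlap, and both knockout values lay under the filter level while both WT values lay just over it. The difference was -0.33 (95% interval -0.52 to -0.14), with an adjusted p of 0.074 in the limma fit without a filter. Clec9a, a lectin that recognises actin exposed by dead cells (probe set 10542181, chromosome 6), read 6.44 and 6.66 on the WT arrays, and 6.08 and 6.19 on those of Id2 KO. All 4 values were under the filter level and the groups did not overlap. The difference was -0.41 (95% interval -0.64 to -0.18; limma without a filter, adjusted p = 0.063).

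Cd8a and Cd24a are surface molecules that cDC1 share with other leukocytes. Cd8a, the coreceptor chain that splenic cDC1 carry as a homodimer (probe set 10538993, chromosome 6), read 7.11 and 7.05 on the WT arrays, and 6.96 on each of the Id2 KO arrays. Its difference of -0.12 (95% interval -0.30 to 0.06) did not pass (limma, adjusted p = 0.437). Cd24a, a small glycosylated protein anchored in the membrane (probe set 10362896, chromosome 10), read 9.78 and 10.05 on the WT arrays, and 9.51 and 9.31 on those of Id2 KO. The groups did not overlap, but the gap between them was no wider than the gap between the WT arrays. Cd24a fell by 0.50, which is 1.42-fold, from 9.91 ± 0.19 to 9.41 ± 0.14 (SD, n = 2 each; 95% interval -0.75 to -0.25; limma, adjusted p = 0.0262). The call was lost without WT replicate 2 (-0.37, adjusted p = 0.163) and without Id2 KO replicate 2 (-0.40, adjusted p = 0.0762), and also with the replicate number as a block (adjusted p = 0.0756), in a range over all alternatives from 0.00265 to 0.302.

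Cd24a is also abundant in neutrophils, in red cell precursors and in immature B cells. Many genes of the neutrophil, erythroid and B cell lists, which were not split by stage, moved between the same arrays. Of 12 measured neutrophil genes, all 12 were lower in both arrays labelled Id2 KO than in both WT arrays, as were 23.2% of all genes. The summed intensity of the neutrophil list was 17896 and 18537 in WT against 1516 and 2429. Of 7 measured erythroid genes, 3 of the 5 tested fell, beside 2.52% of all tested genes. Among these 3, Slc4a1, the anion exchanger of red cells, fell by 1.49 (limma, adjusted p = 2.83e-04). Of the 7, Tfrc alone had a difference above 0, of 0.24, and did not pass (limma, adjusted p = 0.175). The summed intensity of the erythroid list was 1674 and 1957 in WT against 1078 and 1130. B cell genes moved the other way, with 8 of 10 tested rising, beside 5.53% of all tested genes. Their summed intensity was 1440 and 1455 in WT against 2800 and 3276. Vpreb3 (0.08) and Ighm (0.28) did not pass (limma, adjusted p = 0.760 and 0.316). None of the marker genes of these lists was listed at 0. The part of these cells in the lower Cd24a signal was not tested. In bulk samples, fewer cells of a type and less RNA per cell cannot be told apart.

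Cadm1 and Itga8 act in adhesion. Cadm1, a cell adhesion molecule whose ligand CRTAM is found on activated CD8 T and NK cells (probe set 10585048, chromosome 9), read 6.94 and 6.75 on the WT arrays, and 6.64 and 6.72 on those of Id2 KO. The second WT array and the second knockout array were nearly level, and the 4-array mean of 6.76 fell just under the filter. The difference was -0.16 (95% interval -0.38 to 0.05; limma without a filter, adjusted p = 0.506). Itga8, the integrin alpha 8 chain, which pairs with integrin beta 1 and binds nephronectin and fibronectin (probe set 10480090, chromosome 2), read 6.44 and 6.35 on the WT arrays, and 6.09 and 6.30 on those of Id2 KO. The difference of -0.20 (95% interval -0.43 to 0.02; limma without a filter, adjusted p = 0.398) was about as large as the gap between the knockout arrays.

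Snx22, Wdfy4 and Naaa act inside the cell. Snx22, a sorting nexin of the endosomal membrane (probe set 10594582, chromosome 9), read 7.55 and 7.73 on the WT arrays, and 7.16 and 7.21 on those of Id2 KO. Both knockout values lay well below the lower WT value. Snx22 fell by 0.45, which is 1.37-fold, from 7.64 ± 0.12 to 7.19 ± 0.04 (SD, n = 2 each; 95% interval -0.66 to -0.25; limma, adjusted p = 0.0146). The call was lost without WT replicate 2 (-0.37, adjusted p = 0.11) and held with each of the other arrays left out, in a range over all alternatives from 0.00769 to 0.222. Without the filter, the calls of Snx22 and Cd24a were both lost whichever array was left out. The lowest adjusted p of each came from pairing WT replicate 1 with Id2 KO replicate 2, an alternative added after seeing the data. Among the other alternatives the lowest adjusted p in limma was 0.0135 for Snx22 and 0.0118 for Cd24a.

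Wdfy4, a large vesicle protein that cDC1 need to cross-present antigens of dead cells, gave an almost level signal. Its brighter probe set (10418848, chromosome 14) read 12.53 and 12.50 on the WT arrays, and 12.47 and 12.46 on those of Id2 KO. The groups did not overlap, but the difference was only -0.05 (95% interval -0.22 to 0.13; limma, adjusted p = 0.807). Its dimmer probe set 10418868 pointed the other way, with 11.32 and 11.58 on the WT arrays and 11.53 and 11.63 on those of Id2 KO, a difference of 0.13 with overlapping groups. Wdfy4 was the single marker gene with more than 1 probe set.

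Naaa, a lysosomal enzyme that breaks down lipid amides such as palmitoylethanolamide (probe set 10531370, chromosome 5), is given here in linear intensity, 513 and 542 on the WT arrays, and 579 and 444 on those of Id2 KO. The knockout arrays lay on either side of the WT arrays, so the groups overlapped. The log2 difference was -0.06, from 9.04 ± 0.06 to 8.99 ± 0.27 (SD, n = 2 each; 95% interval -0.33 to 0.22; limma, adjusted p = 0.852), and without Id2 KO replicate 2 it was 0.14. Gcsam, an adaptor first known from germinal centre B cells, where it restrains cell movement (probe set 10436024, chromosome 16), read 7.00 and 7.03 on the WT arrays, and 6.82 and 6.86 on those of Id2 KO. The replicates lay closer together than the groups, yet the difference of -0.18 did not pass (95% interval -0.36 to 0.00; limma, adjusted p = 0.246).

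**Figure D2:**
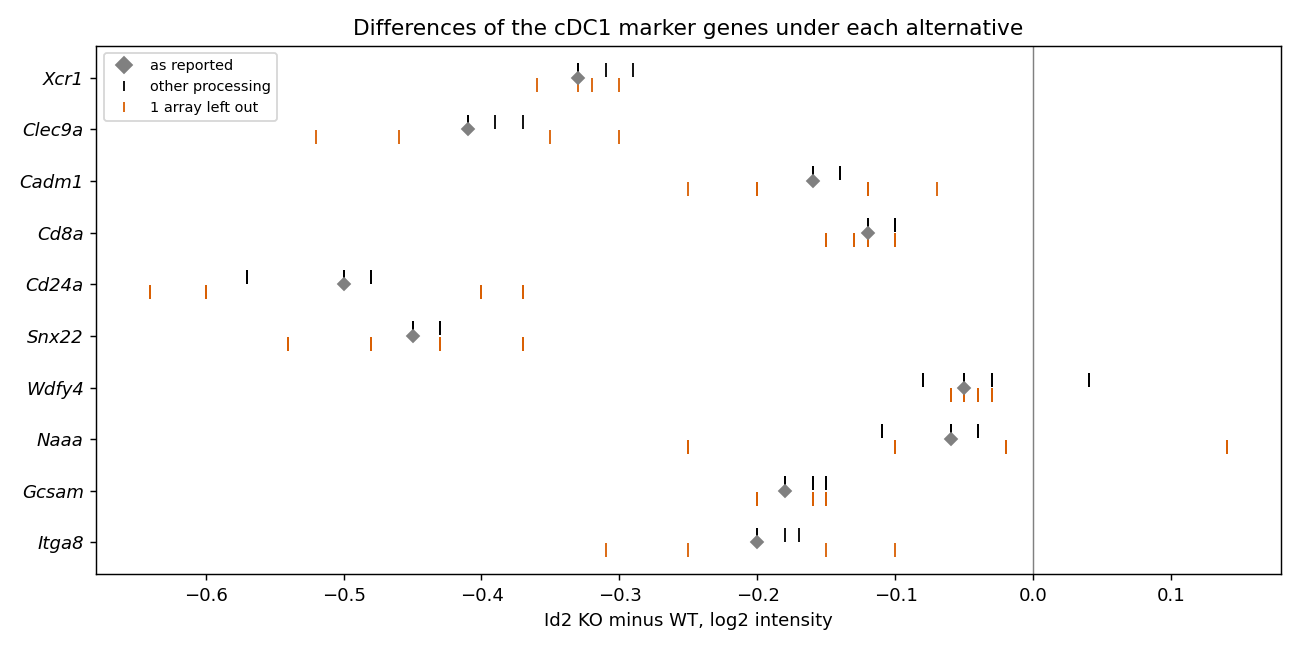
Id2 KO minus WT difference in log2 intensity of the 10 marker genes as reported (grey diamond), under other processing (black ticks) and with 1 array left out (orange ticks). Every difference stays below 0 except those of Wdfy4 with all its probe sets averaged (0.04) and Naaa without Id2 KO replicate 2 (0.14).

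Other genes associated with cDC1 did not all share a direction. Of 22 listed genes, 21 had a probe set of their own, and 11 of these were tested, of which 1 fell, 1 rose and 9 did not pass. Over all tested genes, 2.52% were called lower and 5.53% higher. The median difference over the 21 was -0.08, and both arrays labelled Id2 KO lay below both WT arrays in 8 genes and above them in 3 (23.2% and 20.9% of all genes), with 10 overlapping. Tlr3, the endosomal receptor for double-stranded RNA that cDC1 express strongly, read 8.04 and 8.09 on the WT arrays, and 7.41 and 7.25 on those of Id2 KO. It fell by 0.73, which is 1.66-fold (95% interval -0.93 to -0.53; limma, adjusted p = 0.00103), and in the filtered test no single array, when dropped, cost Tlr3 its call, whereas without a filter the call was lost when WT replicate 2 was dropped (adjusted p = 0.0539). Cxcl9, a chemokine gene induced by interferon gamma that draws T cells, read 7.54 and 7.70 on the WT arrays, and 8.43 and 8.07 on those of Id2 KO. It rose by 0.62 (limma, 95% interval 0.35 to 0.90, adjusted p = 0.0145), with the call lost without WT replicate 1 (0.55). Without a filter, the Cxcl9 call held without Id2 KO replicate 2 and was lost with each of the other arrays left out.

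Among cDC1 genes below the filter, Ifi205, an interferon-inducible gene, read 5.47 and 5.45 on the WT arrays, and 4.84 and 5.06 on those of Id2 KO, a difference of -0.51 (limma without a filter, adjusted p = 0.020), and this call was lost with 3 of the 4 arrays left out in turn, all but Id2 KO replicate 2 (adjusted p = 0.208 and 0.160 without WT replicates 1 and 2, and 0.128 without Id2 KO replicate 1). Hepacam2, a membrane protein gene, had a difference of -0.46 (limma without a filter, adjusted p = 0.048), and its call was lost whichever array was left out (adjusted p from 0.0631 to 0.310) and with renewed quantile normalization (0.0741). Further surface markers of cDC1 did not pass. Itgae (CD103), the integrin of cDC1 in peripheral tissues, differed by 0.06, the endocytic receptor gene Ly75 (DEC-205) by 0.19 and the inhibitory receptor gene Btla by 0.11 (limma, adjusted p = 0.828, 0.220 and 0.654). Rab43, a vesicle GTPase used in cross-presentation, read 10.46 and 10.49 on the WT arrays, and 10.33 and 10.32 on those of Id2 KO, a difference of -0.15 that did not pass (adjusted p = 0.337).

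**Figure D3:**
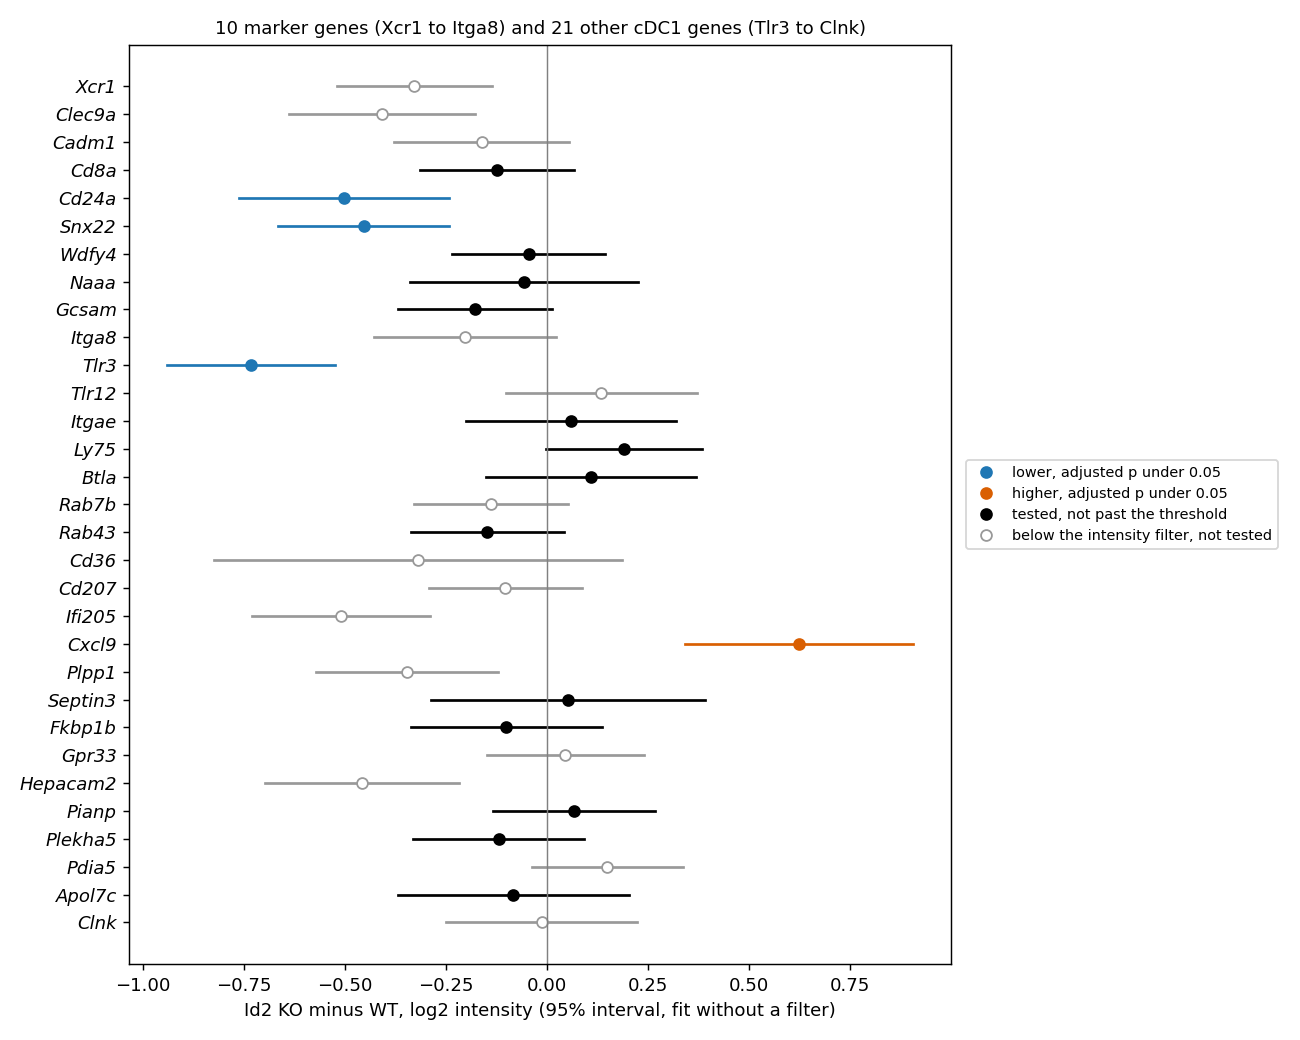
Id2 KO minus WT difference in log2 intensity with its 95% interval from the fit without a filter, for the 10 marker genes and the 21 other cDC1 genes, coloured by the call of the filtered test. Cd24a, Snx22 and Tlr3 are called lower and Cxcl9 is called higher.

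Most transcriptional regulators that promote or oppose cDC1 development, or act in dendritic cells more widely, did not pass. Of 13 listed regulators, all above the filter, 1 rose, 1 fell and 11 did not pass, with a median difference of 0.04. Over all tested genes, 5.53% were called higher and 2.52% lower. Irf8 read 8.16 and 8.27 on the WT arrays, and 8.30 and 8.41 on those of Id2 KO, a difference of 0.14 (95% interval -0.05 to 0.34; limma, adjusted p = 0.409). Batf3 read 10.67 on each WT array, and 10.66 and 10.79 on those of Id2 KO, a difference of 0.05 (adjusted p = 0.795). The related factors Batf (-0.10) and Batf2 (-0.04), and Nfil3 (0.18), Zeb2 (0.04) and Bcl6 (0.04), which act in dendritic cell lineage choice, did not pass either. The E protein genes Tcf3 (0.08), Tcf4 (-0.07) and Tcf12 (-0.11) did not pass.

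Id2 itself read 9.14 and 9.08 on the WT arrays, and 8.71 and 8.97 on those of Id2 KO, and its difference of -0.27 did not pass (limma, adjusted p = 0.172). Without Id2 KO replicate 2 it was -0.40 and passed (adjusted p = 0.0343), and without Id2 KO replicate 1 it was -0.14 (adjusted p = 0.629). Its probe set may lie outside the deleted part, so it does not check the labels, and each direction given here rests on them. Zbtb46, the conventional dendritic cell factor behind the reporter, read 7.57 and 7.55 on the WT arrays, and 6.49 and 6.59 on those of Id2 KO. It fell by 1.02 (limma, adjusted p = 1.35e-04), and both knockout values lay below the filter level. The part of the reporter in the Zbtb46 level was not tested. Cbfa2t3, a transcriptional corepressor gene of blood progenitors, read 10.08 and 9.91 on the WT arrays, and 10.40 and 10.43 on those of Id2 KO. It rose by 0.42 (limma, adjusted p = 0.0192), with the call lost without WT replicate 2 (0.34) and with the replicate number as a block (adjusted p = 0.0536). Without the filter, the Cbfa2t3 call was lost whichever array was left out. It was also lost there with renewed quantile normalization (limma, adjusted p = 0.0642) and with its probe sets averaged (0.33, adjusted p = 0.074).

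**Figure D4:**
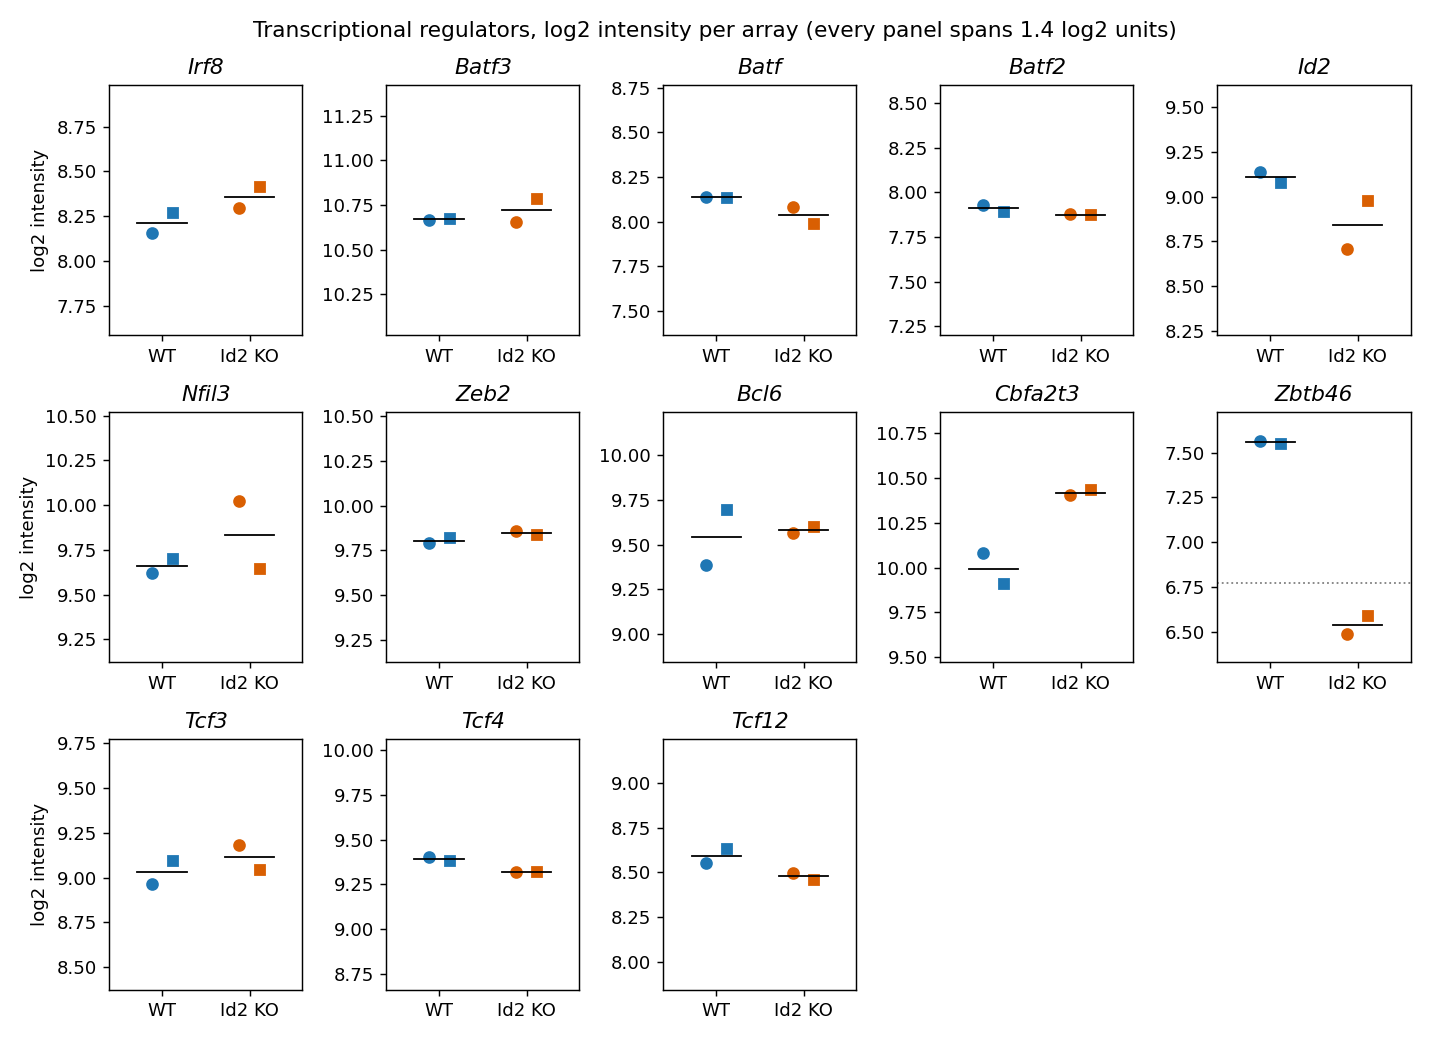
Log2 intensity of the 13 regulators on each array, WT in blue and Id2 KO in orange, with a circle for replicate 1, a square for replicate 2, a bar at the group mean and a dotted line at the filter level of 6.77. Zbtb46 shows the widest gap between the groups, and the Irf8 and Batf3 differences are 0.14 and 0.05.

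Genes whose products bind or closely resemble those of the markers gave 1 call. Of 13 such genes, 11 were tested, of which 1 rose, 0 fell and 10 did not pass, with a median difference of -0.06. Over all tested genes, 5.53% were called higher and 2.52% lower. Itgb1, the beta chain that pairs with Itga8 and with many other alpha chains, rose by 0.53 (limma, adjusted p = 0.00685), from 8.62 and 8.81 in WT to 9.25 and 9.26, and lost its call without WT replicate 1 (adjusted p = 0.0762). Xcl1, the ligand of Xcr1, had a difference of -0.26 (adjusted p = 0.108), and Syk, the kinase through which Clec9a signals, of -0.06 (adjusted p = 0.756). Siglecg, whose product binds CD24, had a difference of 0.08 (adjusted p = 0.660). Of 9 measured genes of cross-presentation, 0 passed in limma. In the limma fit without a filter, 2 of the 9 had an unadjusted p under 0.05, as had 2939 of all 19938 genes. The largest difference among the 9 was -0.27, in Cybb, the oxidase subunit that keeps phagosomes from acidifying.

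Cd8a was read beside markers of the other cells that carry it. Cd8b1, the partner chain found on CD8 T cells and not on cDC1, read 7.37 and 7.40 on the WT arrays, and 7.23 and 7.07 on those of Id2 KO, a difference of -0.23 that did not pass (limma, adjusted p = 0.168). Of 11 measured T cell genes, 9 were tested and 1 fell, beside 2.52% of all tested genes. That gene, Cd3d, fell by 0.43 (limma, adjusted p = 0.0103), with the call lost without WT replicate 1 and without WT replicate 2. The summed intensity of the T cell list was 2316 and 2285 in WT against 2204 and 2201. Plasmacytoid dendritic cells can also carry CD8 alpha, and of 9 tested genes of their list 4 rose and 0 fell. Over all tested genes, 5.53% were called higher and 2.52% lower. Ly6d rose by 1.31, Spib by 1.07, Siglech by 0.56 and Pacsin1 by 0.34 (limma, adjusted p = 4.46e-04, 3.12e-04, 0.0066 and 0.0291). The Siglech call was lost without WT replicate 2. Bst2 (0.04), Tcf4 (-0.07), Ccr9 (-0.16), Cox6a2 (-0.11) and Lair1 (-0.06) did not pass. The summed intensity of this list was 3565 and 3639 in WT against 4068 and 3914. The part of these cells in the Cd8a signal was not tested.

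**Figure D5:**
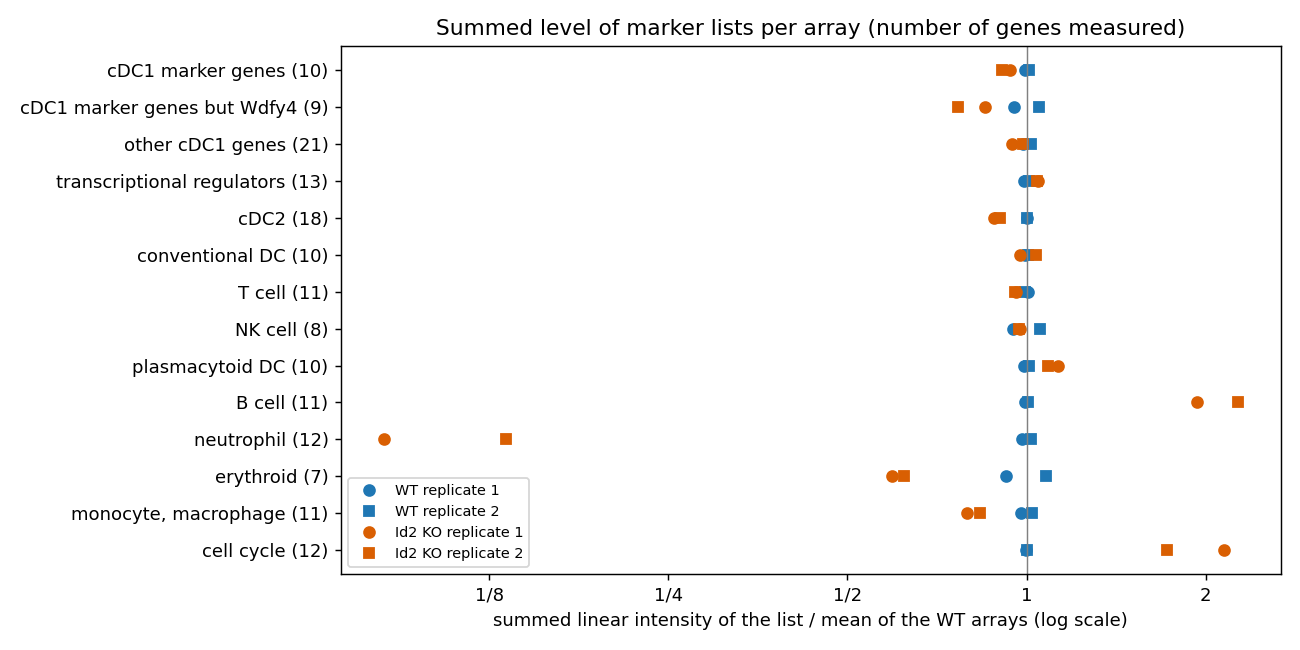
Summed linear intensity of each marker list on each array, divided by the mean of the WT arrays, on a log axis, with the number of measured genes in brackets. The sum of the 10 cDC1 marker genes is 8143 and 8267 in WT against 7698 and 7446, of which Wdfy4 makes up 72.9%, and without Wdfy4 it is 2250 and 2481 against 2013 and 1816. The neutrophil sum drops to 1516 and 2429 from 17896 and 18537 and the B cell and cell cycle sums rise.

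The genes that mark cDC2 did not share a direction. Sirpa, a surface receptor typical of cDC2, read 12.41 and 12.39 on the WT arrays, and 12.14 and 12.20 on those of Id2 KO. Its difference of -0.23 did not pass (limma, adjusted p = 0.131). Itgax (CD11c), which marks dendritic cells in general, lay between 12.81 and 12.85 in the 4 arrays. Of 18 measured cDC2 genes 16 were tested, of which 6 fell and 5 rose, while Clec10a and Mgl2 lay below the filter. Over all tested genes, 2.52% were called lower and 5.53% higher. Among the cDC2 genes that fell were the integrin gene Itgam (CD11b) by 1.00, Cd4 by 0.84 and the lectin gene Clec4a3 by 0.90 (limma, adjusted p = 0.00479, 0.00323 and 3.16e-04). Esam rose by 0.53, and Ltb, Relb and S1pr1 by 0.42 each (limma, adjusted p = 0.0155, 0.0186, 0.0305 and 0.0124). Dtx1 rose by 0.31 (limma, adjusted p = 0.0495). Without the filter, 5 cDC2 genes were called lower and 3 higher. Other features split the arrays the same way as the labels. Of 12 cell cycle genes 11 rose, beside 5.53% of all tested genes. Of 8 tested monocyte and macrophage genes 5 fell, beside 2.52% of all tested genes. Among 8 measured NK cell genes, 3 were tested and gave 0 calls in limma. In the limma fit without a filter, 1 of the 8 had an unadjusted p under 0.05, as had 2939 of all 19938 genes. Xist, the RNA of the silenced X chromosome, had a mean of 11.96 in WT and 6.67 in Id2 KO, and the Y-linked Kdm5d a mean of 5.63 and 8.29. These levels are those of female cells in WT and of male cells in Id2 KO. Genotype and sex of the cells thus cannot be told apart in any difference given here. None of the 10 marker genes is X- or Y-linked.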

How the data were processed

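Per the submitters' processing notes, the authors used Affymetrix Expression Console and RMA, for which no version or order is given. The deposited intensity values, 1 for each probe set on each array, are linear (5.19 to 18624, array medians 128 to 134), and the genome build is not given in the sources used here. RMA equalises the arrays, so a change in total RNA per cell is largely removed. Log2 was taken without a pseudocount. Of 28853 probe sets, 21789 had 1 symbol in the platform annotation, 1621 had several and 5443 were not listed, and only the first kind was named. Of these, 21698 matched a chromosome in the GRCm38.p6 gene table.

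Id2 KO minus WT was fitted over the 11963 genes above the filter with limma 3.58.1 in R 4.3.3 (lmFit, eBayes), two-sided, adjusted by the Benjamini-Hochberg method, calling genes under 0.05. There were 2 residual degrees of freedom per gene and 6.77 from the prior. Adjusted p-values are limma's. Intervals are 95% and not adjusted for the number of genes. Precision is limited by having 2 arrays per group. The procedure was also run on simulated data drawn from limma's own fitted prior, with no effect of sex or cell mixture. That run cannot speak for the calls made here, since it follows the assumptions of the fit. The marker genes, the lists and the rule for named genes (all 10 markers, all regulators, and called or most changed members of the other lists) were chosen with earlier results of these data known. Alternatives were other filters, scalings, probe set rules and priors, each array left out, and the replicate number as a block. A crossed pairing of the replicates was added after seeing the data. Replicate numbers were not taken to pair the samples, since no label says so and there are only 2 pairs.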

Additional observations from a re-analysis of the deposited data

How the results depend on the processing

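The count of marker genes called lower, 2 as reported, was 1 with genes above the 60th percentile (3 tested), between 0 and 2 with 1 array left out, and 0 with 1 array left out and no filter. It was 2 without a filter, under both scalings, with averaged probe sets, with the other prior and without X- and Y-linked genes, and the count called higher was 0 throughout. With the replicate block it was 1 (Snx22, with Cd24a at adjusted p = 0.0756). The residuals of the replicates numbered 1 correlated at -0.14, and a crossed pairing, chosen after seeing the data, gave 2. Other cDC1 genes called lower numbered 3 without a filter, also with averaged probe sets, the other prior or centred arrays, 2 with renewed quantile normalization and no filter, and between 0 and 2 with 1 array left out and no filter. Those called higher ranged from 0 to 1 with 1 array left out, with or without the filter. Regulators called higher were 0 under the replicate block, 0 without a filter under quantile normalization or averaged probe sets, and between 0 and 1 with 1 array left out. Regulators called lower were 0 above the 60th percentile, where Zbtb46 is no longer tested, and between 1 and 2 with 1 array left out. Differences close to 0 changed sign. Wdfy4 became 0.04 with averaged probe sets. Zeb2 became -0.01 and Bcl6 -0.02 with renewed quantile normalization. With 1 array left out, Naaa ranged from -0.25 to 0.14, Batf3 from -0.01 to 0.12, Nfil3 from -0.01 to 0.36 and Bcl6 from -0.11 to 0.19. The cause of these shifts was not tested. With 1 array left out, the lone array is assumed to vary like the other group. The combinations with no filter were chosen after seeing the data. Dim signals limit Xcr1, Clec9a, Cadm1 and Itga8, which have no measured background.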
